A study of Mus musculus with 12 samples.

Results

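The proteasome is the protease that degrades ubiquitin-tagged proteins, and its subunit genes were followed here in mouse kidneys 4 h after warm ischemia. A probe set counted as a member when its only annotated symbol was Psma, Psmb, Psmc, Psmd, Psme, Psmf or Psmg followed by a number, and a gene with several such probe sets was represented by its brightest, by mean of the 12 arrays. The rule gave 47 genes from 50 probe sets, of 22180 genes and 34472 probe sets in all. The study asked how deletion of HDAC2, a histone deacetylase, alters the kidney's response to ischemia. RNA of 12 female mice aged 8 to 12 weeks was hybridised to 1 array each, with 3 mice in each of 4 groups. For each genotype, WT or HDAC2-/-, a group was left without ischemia and another was studied 4 h after its renal pedicle had been clamped for 28 min and the opposite kidney removed. By the labels the WT mice carried ERT2cre and the HDAC2-/- mice were HDAC2fl/fl-ERTcre, whereas the paper calls the controls B6 mice. All mice received tamoxifen at 100 mg/kg on 5 days with 7 days of recovery, so that the inducible Cre could delete HDAC2 throughout the body. The labels give renal cortex as the tissue and the paper gives whole kidney. No sham operation is named for the mice without ischemia, and surgery and ischemia cannot be told apart.

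Each proteasome consists of a barrel-shaped core particle and the caps that open it. The core stacks outer rings of alpha subunits, which gate the channel, on inner rings of beta subunits, of which Psmb5, Psmb6 and Psmb7 are proteolytic. The regulatory particle caps the barrel with a base, whose ATPase ring unfolds substrates, and a lid, which removes the ubiquitin chain. Interferon replaces the catalytic subunits with Psmb8, Psmb9 and Psmb10 to form the immunoproteasome, whose peptides are loaded onto MHC class I molecules. Other caps, the activators, bind the same barrel without needing ubiquitin, and dedicated chaperones assemble core and base. In most cells, those of the kidney tubule included, proteasomes carry out much of the regulated protein turnover.

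The members fell into 13 constitutive core genes, 3 immunoproteasome genes, 17 genes of the regulatory particle, 4 activators, 1 inhibitor, 7 assembly chaperones, the testis form Psma8 and the thymus form Psmb11. The values are log2 intensities after robust multiarray averaging (RMA), and they are compared between groups for 1 probe set at a time. Of the members, 3 had a mean under 5, namely Psma8 between 3.27 and 3.97, Psma5 between 4.04 and 4.59 and Psmb11 between 4.24 and 4.77, while the medians of all probe sets on an array lay between 5.62 and 5.76. Psma8 and Psmb11 are known from testis and thymus, whereas Psma5 is a core subunit of every cell, and the cause of its low values was not tested. Psma4, a core alpha subunit, was no member because its probe sets also carried the symbol AY074887. The brighter of these read 8.66, 8.91 and 9.03 in WT, 9.05, 9.49 and 9.14 in ischemic WT, 8.86, 8.97 and 9.39 in HDAC2-/- and 8.98, 9.31 and 9.26 in ischemic HDAC2-/- kidneys, and it was not called. Genes of kidney tubules and glomeruli were bright, with Slc34a1 between 13.84 and 14.07 and Umod between 12.61 and 13.62, and their list mean overlapped between all 4 groups. The probe set of Hdac2 averaged 7.92, 8.01, 7.99 and 8.13 in WT, ischemic WT, HDAC2-/- and ischemic HDAC2-/- kidneys, and since its place relative to the deleted exon is not given it does not check the deletion. Arrays of a group correlated at 0.983 to 0.994 across probe sets. By limma's array weights, ischemic WT replicate 2 at 0.35 and HDAC2-/- replicate 3 at 0.38 departed most from their groups. Counts of called members are given with and without them, whereas single members are given so only in part. The pathway and marker genes are given with all arrays only.

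In WT kidneys, 9 of 17 genes of the regulatory particle rose and none fell (limma). None of the 13 constitutive core genes was called, although 2 reached an unadjusted p under 0.05, as did 8648 of all 34472 probe sets. Psmb9 of the immunoproteasome, the activator Psme1 and the chaperones Psmg1, Psmg2 and Psmd9 fell, and the activator Psme4 rose. Over all 47 members 10 rose and 5 fell in WT, or 21.3% and 10.6%, where 6.55% of all probe sets rose and 7.17% fell (limma, adjusted p under 0.05). In HDAC2-/- kidneys 1 member rose and 0 fell, against 2.94% and 1.97% of all probe sets. There 13 of the 47 members had an unadjusted p under 0.05, as did 5829 of all 34472 probe sets (limma). Without HDAC2-/- replicate 3, 4 members rose and 2 fell there, and 2 rose without ischemic WT replicate 2. The shares of all probe sets called in those fits are not given. Over both genotypes together 10 members rose and 8 fell, or 21.3% and 17.0%, against 8.52% and 9.92% of all probe sets. RNA was taken from whole tissue, so fewer cells of a type and less RNA per cell cannot be told apart.

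**Figure D1:**
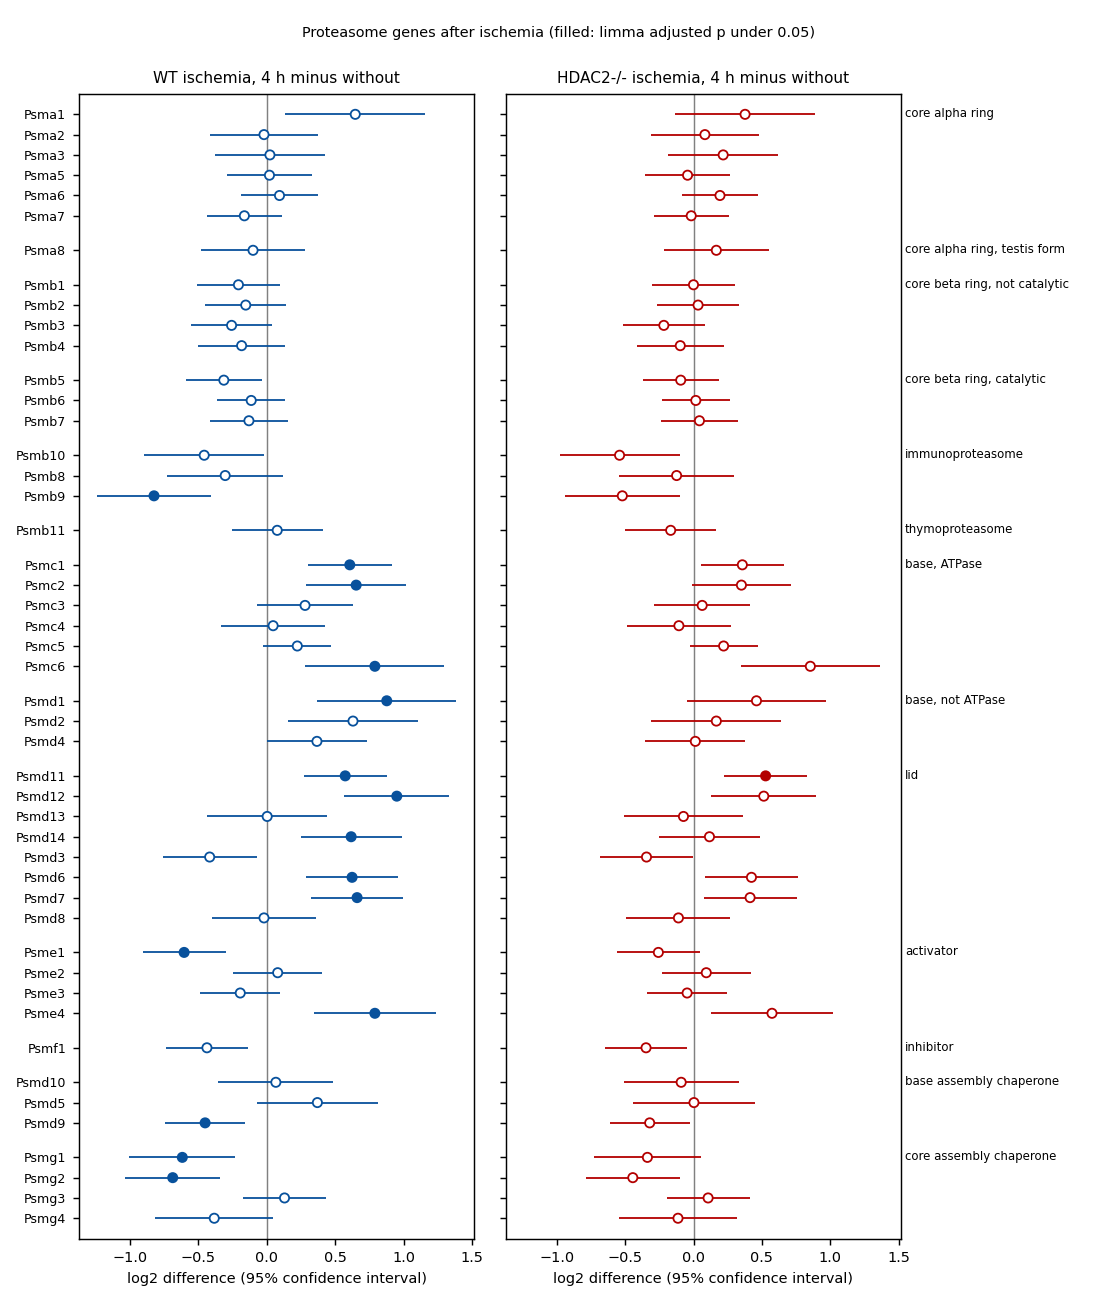
Log2 difference between kidneys at 4 h and kidneys without ischemia for each of the 47 members, WT left and HDAC2-/- right, with 95% confidence intervals from limma on 3 arrays per group and filled points for an adjusted p under 0.05. Genes of the base and lid lie mostly to the right of 0 and the core genes near 0, and in HDAC2-/- kidneys Psmd11 alone is filled.

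The median log2 difference in WT was 0.61 for the regulatory particle and -0.13 for the constitutive core, beside 0.02 for all members and -0.02 for all probe sets. The HDAC2-/- medians were 0.22 and 0.02, and over both genotypes 0.40 and -0.05. Of the 17 regulatory genes, 15 were above 0 in WT and 13 in HDAC2-/- kidneys. The median standard error (SE) of a member's difference was 0.16 within a genotype and 0.11 over both. The WT counts moved with single arrays: 5, 1 and 6 members rose without WT replicate 1, 2 and 3, and 4 rose without ischemic WT replicate 2, while 3 fell without any 1 WT array, without ischemic WT replicate 1 or without ischemic HDAC2-/- replicate 3. Of the 17 regulatory genes, 5, 1 and 4 rose in WT without WT replicate 1, 2 and 3, and 3 without ischemic WT replicate 2. The WT rises of Psmc2, Psmc6, Psmd1, Psmd6, Psmd11 and Psmd14 and the WT fall of Psmd9 were not called without ischemic WT replicate 2. Over both genotypes the risers were steadier, at 9 to 11 whichever array was left out, and 9 of the 10 were called in all 12 of these fits. When both arrays of lowest weight were left out, an alternative chosen after seeing the data, 9 members rose and 4 fell in WT, 7 rose and 2 fell in HDAC2-/-, and 11 rose and 8 fell over both genotypes.

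The lid carried the largest rise in WT. Psmd12, a scaffold subunit of the lid, read 7.78, 7.69 and 7.74 in WT and 8.49, 9.15 and 8.42 in ischemic WT kidneys. In HDAC2-/- mice it read 7.93, 7.75 and 8.08 without ischemia and 8.28, 8.54 and 8.48 after it. The ischemic arrays lay above the others in each genotype, and replicate 2 stood highest among the ischemic WT arrays. The rise was 0.95 (SE 0.18), or 1.93-fold, in WT and 0.51 (SE 0.18) in HDAC2-/-, and 0.73 (SE 0.13, limma adjusted p = 0.00103) over both. In WT it was the only riser called in all 12 fits without 1 array.

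Psmd11, another lid scaffold, was the sole member called in HDAC2-/- kidneys. It read 9.58, 9.40 and 9.33 in WT, 9.82, 10.20 and 10.01 in ischemic WT, 9.41, 9.39 and 9.36 in HDAC2-/- and 10.06, 9.73 and 9.95 in ischemic HDAC2-/- kidneys. No ischemic array overlapped an array without ischemia of its genotype, and the 3 HDAC2-/- arrays lay close together. The rise was 0.57 (SE 0.14) in WT and 0.53 (SE 0.14, limma adjusted p = 0.0473) in HDAC2-/-. The HDAC2-/- call was lost without 9 of the 12 arrays in turn, with adjusted p values up to 0.158, whereas over both genotypes (0.55, SE 0.10, limma adjusted p = 0.0014) it was kept in every such fit.

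Psmd7 and Psmd14 form the deubiquitinating pair of the lid, in which Psmd14 is the enzyme. Psmd7 read 9.28, 9.04 and 9.02 in WT, 9.63, 10.14 and 9.55 in ischemic WT, 9.31, 9.30 and 9.19 in HDAC2-/- and 9.64, 9.78 and 9.62 in ischemic HDAC2-/- kidneys. Its arrays were apart in both genotypes, and the rise over both was 0.54 (SE 0.11, limma adjusted p = 0.00366). Psmd14 read 7.28, 7.06 and 7.20 in WT and 7.63, 8.13 and 7.63 in ischemic WT, a rise of 0.62 (SE 0.17, limma adjusted p = 0.0284). The WT call was lost without ischemic WT replicate 2, WT replicate 2 or WT replicate 3, with limma adjusted p values up to 0.114. The HDAC2-/- arrays read 7.21, 7.34 and 7.75, and 7.44, 7.61 and 7.60 after ischemia, so that replicate 3 without ischemia lay above all ischemic arrays and the difference was 0.12 (SE 0.17). Over both genotypes Psmd14 missed the threshold at an adjusted p of 0.0505 in limma, and it passed at 0.0127 without HDAC2-/- replicate 3, at 0.0479 without ischemic WT replicate 1 and at 0.0437 without ischemic WT replicate 3.

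Psmd6, also of the lid scaffold, read 8.01, 7.97 and 8.31 in WT and 8.57, 8.84 and 8.75 in ischemic WT, then 8.06, 8.19 and 8.54 in HDAC2-/- and 8.53, 8.79 and 8.74 in ischemic HDAC2-/- kidneys. Apart from HDAC2-/- replicate 3, which overlapped the lowest ischemic array, the groups were separate, and over both genotypes it rose by 0.52 (SE 0.11, limma adjusted p = 0.00426). The lid did not move as a whole. Psmd3, a further scaffold subunit of the lid, read 10.40, 10.28 and 10.26 in WT and 9.78, 9.99 and 9.92 in ischemic WT, with 10.46, 10.36 and 9.96 in HDAC2-/- and 10.18, 9.74 and 9.83 in ischemic HDAC2-/- kidneys. It fell over both genotypes by 0.38 (SE 0.11, limma adjusted p = 0.0295), and the call was lost without 7 of the 12 arrays in turn, namely WT replicates 1 and 2, HDAC2-/- replicates 1 and 2, ischemic WT replicate 1 and ischemic HDAC2-/- replicates 2 and 3. Psmd8 and Psmd13, the remaining lid genes, differed by -0.02 and 0.00 in WT and by -0.11 and -0.07 in HDAC2-/-, with overlapping arrays throughout.

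**Figure D2:**
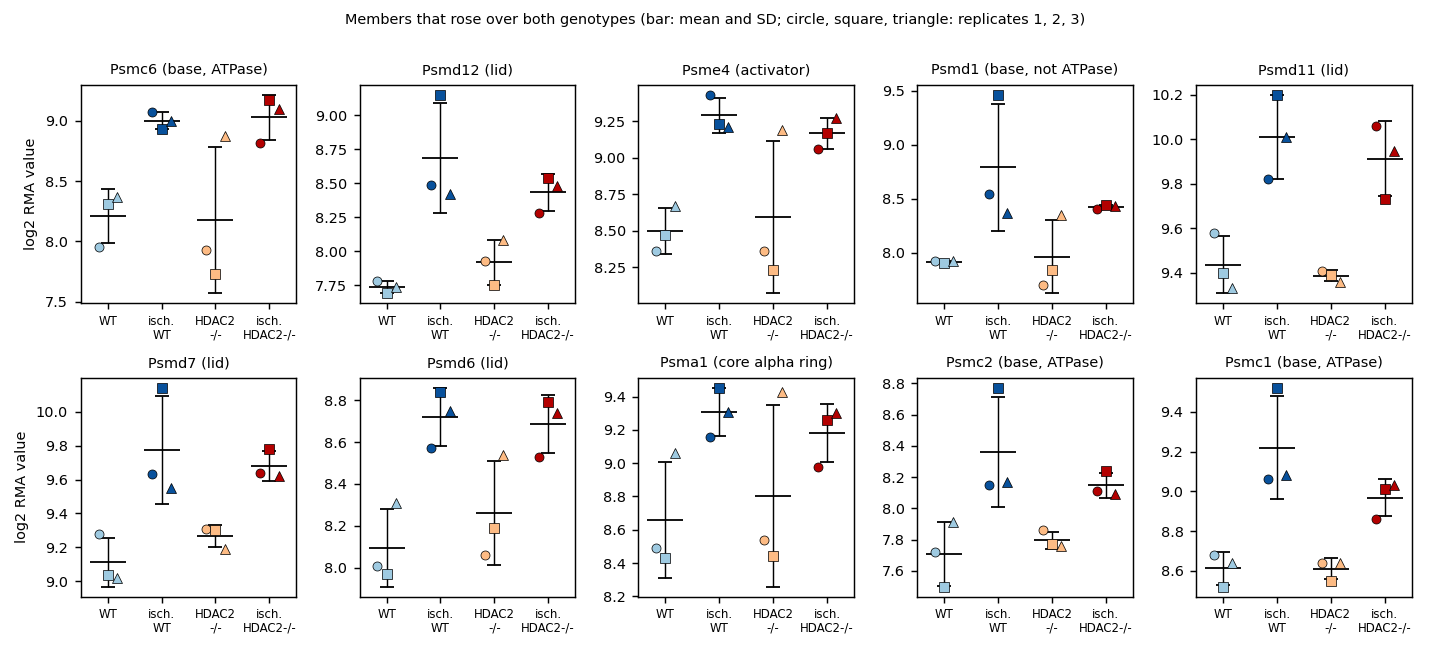
Log2 RMA value on every array of the 10 members that rose over both genotypes (symbols, 3 arrays per group; bars, mean and SD). Psmd12, Psmd11, Psmd7, Psmd1, Psmc2 and Psmc1 are higher on every ischemic array than without ischemia in both genotypes, ischemic WT replicate 2 tops several panels, and HDAC2-/- replicate 3 lies with the ischemic arrays for Psmc6, Psme4 and Psma1.

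In the base, 3 of the 6 ATPase genes rose in WT. Psmc6 had the largest rise of any member over both genotypes. It read 7.95, 8.31 and 8.37 in WT and 9.07, 8.93 and 9.0 in ischemic WT kidneys, and 7.93, 7.73 and 8.87 in HDAC2-/- and 8.82, 9.17 and 9.10 in ischemic HDAC2-/- kidneys. The WT arrays were apart, while HDAC2-/- replicate 3 at 8.87 lay above the lowest ischemic array of its genotype. The rise was 0.82 (SE 0.17, limma adjusted p = 0.00319), or 1.77-fold, over both genotypes, and 0.79 (SE 0.24) in WT and 0.85 (SE 0.24) in HDAC2-/-, where the adjusted p was 0.0554 in limma. In WT the call was lost without 7 of the 12 arrays in turn, among them each of the 6 WT arrays.

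Psmc1, whose counterpart in yeast helps to open the core gate, read 8.68, 8.52 and 8.64 in WT, 9.06, 9.52 and 9.08 in ischemic WT, 8.64, 8.55 and 8.64 in HDAC2-/- and 8.86, 9.01 and 9.03 in ischemic HDAC2-/- kidneys. Psmc2 read 7.72, 7.50 and 7.91, then 8.15, 8.77 and 8.17, then 7.86, 7.77 and 7.76, and 8.11, 8.24 and 8.09 in the same order of groups. Both were apart in each genotype, with rises over both of 0.48 (SE 0.10, limma adjusted p = 0.00373) and 0.50 (SE 0.12, limma adjusted p = 0.00887). A second, dimmer probe set of Psmc2 differed by 0.28 (SE 0.13) over both genotypes and was not called. Psmc5 read between 7.66 and 7.84 on the 6 arrays without ischemia and between 7.95 and 8.08 on the 6 ischemic ones, so that its arrays were apart as well, but the difference of 0.22 (SE 0.08) was not called. Psmc3 and Psmc4 overlapped in both genotypes and differed by 0.17 (SE 0.12) and -0.03 (SE 0.13) over both.

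Of the base genes that are not ATPases, Psmd1 was called. This large scaffold subunit read 7.92, 7.90 and 7.92 in WT and 8.54, 9.46 and 8.37 in ischemic WT, and 7.70, 7.84 and 8.35 in HDAC2-/- and 8.40, 8.44 and 8.43 in ischemic HDAC2-/- kidneys. The rise over both genotypes was 0.67 (SE 0.17, limma adjusted p = 0.0117). Psmd1 also shared a dimmer probe set with Armc9, which differed by -0.31 (SE 0.13) over both genotypes and was not called. Psmd2, its counterpart that docks the shuttle factors of ubiquitinated cargo, read 8.40, 8.25 and 8.32 in WT, 8.67, 9.66 and 8.53 in ischemic WT, 8.38, 8.35 and 8.36 in HDAC2-/- and 8.52, 8.51 and 8.56 in ischemic HDAC2-/- kidneys. No arrays overlapped, but ischemic WT replicate 2 alone stood above 9, and the difference over both genotypes of 0.40 (SE 0.16) was not called, though it passed without ischemic WT replicate 3 (limma adjusted p = 0.0303). The ubiquitin receptor Psmd4 differed by 0.37 (SE 0.17) in WT and 0.01 (SE 0.17) in HDAC2-/-.

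Counted over arrays, 8 of 47 members (Psmc1, Psmc2, Psmc5, Psmd1, Psmd2, Psmd7, Psmd11 and Psmd12) were higher on all ischemic arrays than on all others within both genotypes, or 17.0%, against 5.78% of all probe sets. All 8 belong to the regulatory particle. Another 6 members (Psmb5, Psmd9, Psme1, Psmf1, Psmg1 and Psmg2), or 12.8%, were lower on all ischemic arrays within both genotypes, against 5.64% of all probe sets. With 3 arrays against 3 an exact permutation test gives no p under 0.1, and within both genotypes at once none under 0.005.

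The level of small RNAs moved against most of the regulatory genes from array to array. The mean of 85 probe sets of small nuclear and nucleolar RNAs was lowest on ischemic WT replicate 2, at 8.02, the array on which Psmd1, Psmd2, Psmd7 and Psmd12 stood highest, and it reached 9.22 on HDAC2-/- replicate 3. Its group ranges overlapped, with 8.30 to 9.05 in WT, 8.02 to 8.92 in ischemic WT, 8.47 to 9.22 in HDAC2-/- and 8.57 to 9.23 in ischemic HDAC2-/- kidneys. Over the deviations of the 12 arrays from their group means, the median correlation with this level was -0.63 for the regulatory genes, from -0.97 for Psmc4 to 0.74 for Psmc6, and 0.57 for the core genes. These 12 deviations share their libraries and are a description only. With the level as a covariate, 10 regulatory genes rose and 1 fell in WT and over both genotypes alike. Without ischemic WT replicate 2, 3 regulatory genes rose in WT and 8 over both genotypes.

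**Figure D3:**
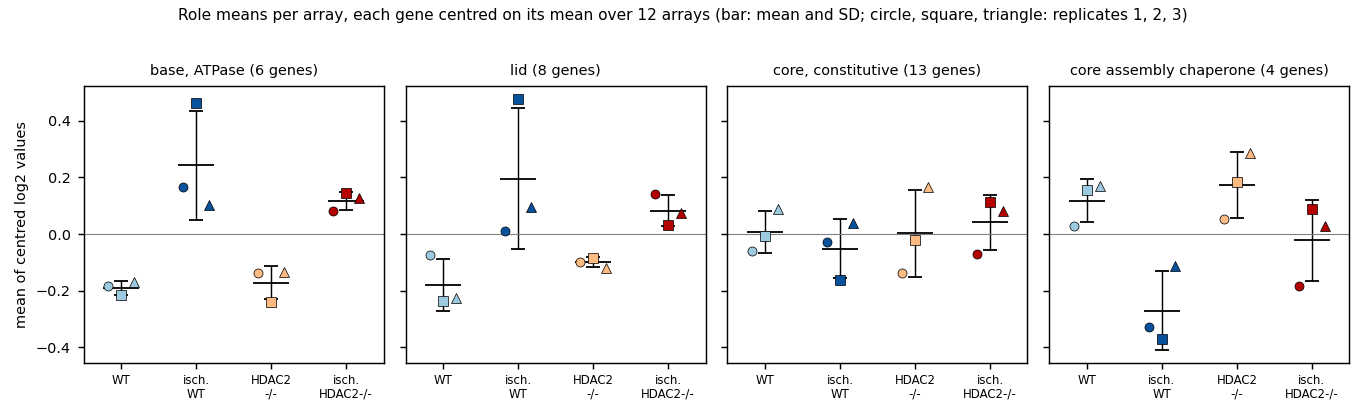
Mean of the log2 values of the 6 ATPase, 8 lid, 13 constitutive core and 4 core assembly chaperone genes on every array, after centring each gene on its mean over 12 arrays (symbols, arrays; bars, mean and SD of 3). ATPase and lid means are higher on all ischemic arrays than on the arrays without ischemia, with ischemic WT replicate 2 highest at 0.46 and 0.48, while the core means overlap between the 4 groups.

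Averaged over its 17 genes after centring each on its own mean, the regulatory particle stood between -0.24 and -0.13 on WT, between 0.08 and 0.55 on ischemic WT, between -0.16 and -0.13 on HDAC2-/- and between 0.07 and 0.11 on ischemic HDAC2-/- arrays. The ischemic and other arrays did not overlap, and replicate 2 set the upper end of the wide ischemic WT range. The constitutive core averaged between -0.06 and 0.09, between -0.16 and 0.04, between -0.14 and 0.17, and between -0.07 and 0.11 in the same order, so that all groups overlapped. Within groups the regulatory genes deviated together (median correlation 0.45 between genes over 12 arrays), as did the core genes (0.40), whereas the median between a regulatory and a core gene was -0.32.

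Promoter sequences are shown for the members with the largest rises over both genotypes, Psmc6, Psmd12 and Psme4, because the proteasome genes are known targets of the NRF family, which binds antioxidant response elements. The letters TGACNNNGC, searched on both strands in the RefSeq windows of GRCm38.p6 that run from 250 bases before to 50 after each annotated start, were found in 6 of 42 member promoters (14.3%) and in 12.4% of 32851 promoters. The sequences run 5′ to 3′ on the gene's strand, from 250 bases before the start to 10 after it, with the match in capitals. They lie at chr14:45329574-45329833, chr11:107479278-107479537 and chr11:30771525-30771784, all on the plus strand.
Psmc6: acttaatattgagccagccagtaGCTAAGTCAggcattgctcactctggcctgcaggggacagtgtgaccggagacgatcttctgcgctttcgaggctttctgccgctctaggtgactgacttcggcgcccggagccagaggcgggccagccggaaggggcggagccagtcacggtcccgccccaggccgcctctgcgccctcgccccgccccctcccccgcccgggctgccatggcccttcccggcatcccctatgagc
Psmd12: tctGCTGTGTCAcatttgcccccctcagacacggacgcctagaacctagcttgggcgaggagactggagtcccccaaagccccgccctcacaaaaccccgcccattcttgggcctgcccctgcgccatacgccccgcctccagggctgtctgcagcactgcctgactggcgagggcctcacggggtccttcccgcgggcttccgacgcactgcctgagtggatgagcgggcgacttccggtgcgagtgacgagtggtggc
Psme4: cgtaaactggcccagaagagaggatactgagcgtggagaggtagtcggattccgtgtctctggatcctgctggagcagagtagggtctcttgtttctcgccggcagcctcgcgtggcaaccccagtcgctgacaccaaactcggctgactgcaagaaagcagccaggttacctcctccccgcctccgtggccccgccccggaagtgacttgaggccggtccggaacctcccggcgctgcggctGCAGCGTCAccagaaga
In these windows the match begins at -227 for Psmc6, at -247 for Psmd12 and at -7 for Psme4, and it lies on the minus strand in each. The other matches were TGACGTCGC in Psmb5, TGACGGAGC in Psmb6 and TGACCCCGC in Psmd9, genes that did not rise, and no match overlapped one of the other motifs searched. The heat shock letters GAANNTTC were in 3 member promoters (7.14%, against 7.86% of all), those of Psmb5, Psmb9 and Psmf1. The interferon-response letters GAAANNGAA were in 7 (16.7%, against 8.56%), those of Psmb3, Psmb4, Psmc2, Psmd4, Psmd9, Psme1 and Psmg4. CCAAT was in 14 (33.3%, against 37.4%). These windows covered 39 of the 47 genes. Member promoters of a single chromosome were left out of the search, whereas the shares of all promoters left out no chromosome. A match in such a window is a description of its letters and not of a bound site.

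In the constitutive core, Psma1 alone was called. This alpha-ring gene read 8.49, 8.43 and 9.06 in WT, 9.16, 9.45 and 9.31 in ischemic WT, 8.54, 8.44 and 9.43 in HDAC2-/- and 8.98, 9.26 and 9.30 in ischemic HDAC2-/- kidneys. HDAC2-/- replicate 3 lay above every ischemic array of its genotype, and the rise over both genotypes of 0.51 (SE 0.17, limma adjusted p = 0.049) was lost without 9 of the 12 arrays in turn, with adjusted p values up to 0.129. The fits that kept it left out replicate 3 of HDAC2-/-, replicate 3 of WT or replicate 1 of ischemic HDAC2-/-. The other alpha-ring genes differed over both genotypes by -0.09 (Psma7) to 0.14 (Psma6).

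All 7 constitutive beta-ring genes were below 0 in WT, between -0.31 for Psmb5 and -0.11 for Psmb6, and none was called. Psmb5, the subunit with chymotrypsin-like activity and the target of bortezomib, read 12.23, 12.29 and 12.21 in WT, 11.99, 11.70 and 12.10 in ischemic WT, 12.17, 12.26 and 12.17 in HDAC2-/- and 12.12, 12.16 and 12.04 in ischemic HDAC2-/- kidneys. Its ischemic arrays lay below the others in both genotypes, by 0.20 (SE 0.09) over both, where limma gave an adjusted p of 0.16. An exact permutation test within the genotypes gave p = 0.005, the smallest it can give, without adjustment for the number of members. Every member whose arrays were apart in both genotypes had this p in that test, Psmc5 and Psmd2 included, which were not called either. Psmb3, a noncatalytic beta subunit, differed by -0.24 (SE 0.10) over both genotypes with an adjusted p of 0.122 in limma. Psma8 and Psmb11, at their low values, differed by 0.03 (SE 0.13) and -0.05 (SE 0.11).

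The immunoproteasome genes fell where they moved. Psmb9, which takes the place of Psmb6, read 7.37, 7.27 and 7.44 in WT and 6.70, 6.43 and 6.48 in ischemic WT kidneys. HDAC2-/- kidneys read 7.74, 7.40 and 6.92, and 7.00, 6.98 and 6.52 after ischemia. The WT groups were apart by more than 0.5, whereas HDAC2-/- replicate 3 at 6.92 lay among the ischemic arrays of its genotype. The fall was 0.82 on the log2 scale (SE 0.20, limma adjusted p = 0.0121), or 1.77-fold, in WT, and over both genotypes Psmb9 fell by 0.67 (SE 0.14, limma adjusted p = 0.00333), which held in all 12 fits without 1 array. Within HDAC2-/- the difference was -0.52 (SE 0.20), with an adjusted p of 0.171 in limma.

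Psmb10, which replaces Psmb7, read 9.08, 8.96 and 8.69 in WT, 8.57, 8.51 and 8.28 in ischemic WT, 9.29, 9.05 and 8.49 in HDAC2-/- and 8.49, 8.63 and 8.09 in ischemic HDAC2-/- kidneys. The WT arrays were apart and the HDAC2-/- arrays overlapped through replicate 3. It fell over both genotypes by 0.50 (SE 0.14, limma adjusted p = 0.026), a call lost without 6 of the 12 arrays in turn, namely replicates 1 and 2 of WT and of HDAC2-/- and replicate 3 of ischemic WT and of ischemic HDAC2-/-, with adjusted p values up to 0.0753. Psmb8, which replaces Psmb5, read 7.72, 7.46 and 7.44, then 7.48, 7.04 and 7.19, then 7.75, 7.41 and 7.17, and 7.13, 7.72 and 7.11 in the order WT, ischemic WT, HDAC2-/- and ischemic HDAC2-/-. Its groups overlapped, and it differed by -0.21 (SE 0.14) over both genotypes, with an adjusted p of 0.365 in limma. Without HDAC2-/- replicate 3, 2 of the 3 immunoproteasome genes also fell within HDAC2-/- kidneys. Over deviations from the group means, Psmb9 correlated with Psmb10 at 0.83 and with Psmb8 at 0.71 on 12 arrays.

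**Figure D4:**
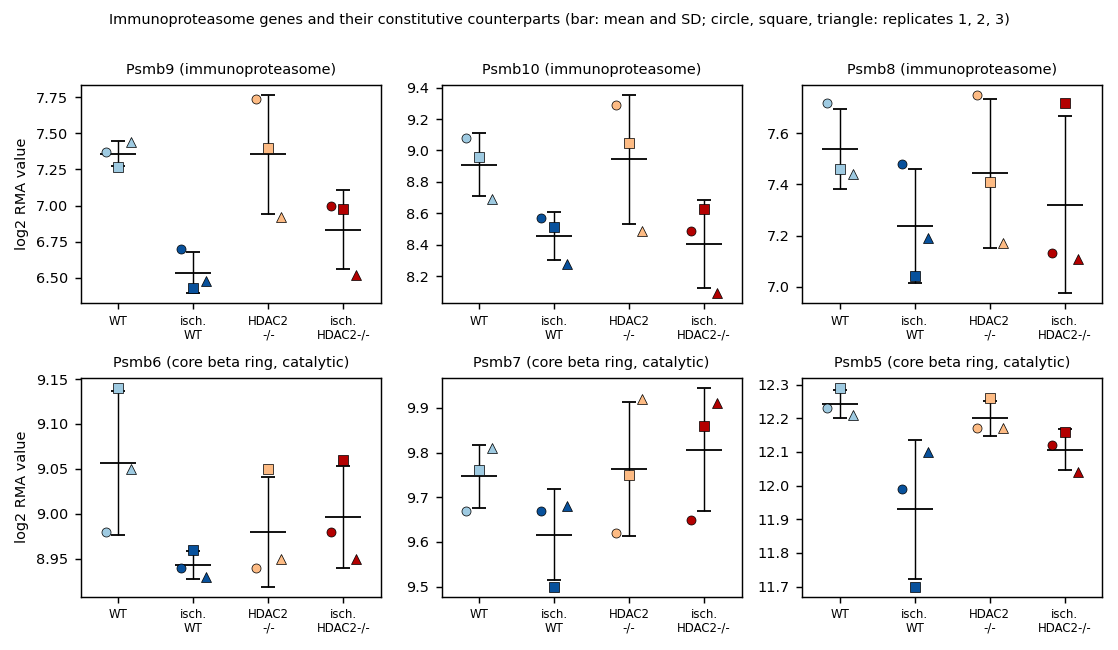
Log2 RMA value on every array of the immunoproteasome genes Psmb9, Psmb10 and Psmb8 (top) and of the constitutive subunits they replace, Psmb6, Psmb7 and Psmb5 (bottom), with mean and SD of 3 arrays per group and an axis of its own in each panel. Psmb9 lies lower in ischemic WT, between 6.43 and 6.70, than in WT, between 7.27 and 7.44, while Psmb6 stays between 8.93 and 9.14 on all 12 arrays.

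The change of each immunoproteasome gene was also set against that of its counterpart within the same array, which compares changes and not levels. The difference Psmb9 less Psmb6 changed by -0.71 (SE 0.20, limma adjusted p = 0.0264) in WT and by -0.54 (SE 0.20, adjusted p = 0.157 in limma) in HDAC2-/- kidneys, and by -0.62 (SE 0.14, limma adjusted p = 0.0055) over both. For Psmb10 less Psmb7 the change over both genotypes was -0.46 (SE 0.18) with an adjusted p of 0.105 in limma, and without HDAC2-/- replicate 3 it was -0.61 with 0.0111. For Psmb8 less Psmb5 it was -0.01 (SE 0.13), with a 95% interval from -0.30 to 0.28. Psmb9 and Psmb8 lie beside Tap1 and Tap2, the genes of the peptide transporter, in the order Psmb9, Tap1, Psmb8, Tap2 on chromosome 17. Tap1 differed by -0.35 (SE 0.16) and Tap2 by -0.29 (SE 0.12) over both genotypes, and neither was called.

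Leukocytes express the immunoproteasome at baseline, and their markers moved in both directions. Of 20 listed markers 19 were measured, and 3 rose and 2 fell in WT, 4 rose and 0 fell in HDAC2-/-, and 5 rose and 4 fell over both genotypes. Of all probe sets 6.55% rose and 7.17% fell in WT, 2.94% and 1.97% in HDAC2-/-, and 8.52% and 9.92% over both. The fallers over both genotypes included Nkg7 of cytotoxic lymphocytes, which read 7.92, 7.69 and 8.08 in WT and 6.97, 6.61 and 7.20 in ischemic WT, while Cd68 of macrophages rose by 1.27 (SE 0.13). The mean of the list ranged from 6.08 to 6.30 in WT, 6.04 to 6.51 in ischemic WT, 6.08 to 6.19 in HDAC2-/- and 6.20 to 6.42 in ischemic HDAC2-/- kidneys. The part of these cells in the values of Psmb9 and Psmb10 was not tested.

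The activators diverged. Psme4, a single-chain cap of the core, read 8.36, 8.47 and 8.67 in WT and 9.43, 9.23 and 9.21 in ischemic WT, with 8.36, 8.23 and 9.19 in HDAC2-/- and 9.06, 9.17 and 9.27 in ischemic HDAC2-/- kidneys. It rose over both genotypes by 0.68 (SE 0.15, limma adjusted p = 0.00448), and HDAC2-/- replicate 3 again lay among the ischemic arrays. Psme1, a subunit of the interferon-inducible ring activator, read 9.46, 9.56 and 9.59 in WT, 8.94, 8.68 and 9.18 in ischemic WT, 9.45, 9.31 and 9.35 in HDAC2-/- and 9.10, 9.22 and 9.02 in ischemic HDAC2-/- kidneys. Every ischemic array was lower, and over both genotypes Psme1 fell by 0.43 (SE 0.10, limma adjusted p = 0.00739), a call kept in all 12 fits without 1 array. Its ring partner Psme2, which lies near it on chromosome 14 with Emc9 between them, differed by 0.09 (SE 0.11) and overlapped throughout. A brighter probe set that Psme2 shared with other symbols differed by -0.145 (SE 0.15) over both genotypes and was not called. Psme3, the nuclear ring activator, differed by -0.12 (SE 0.10).

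Psmf1, named as an inhibitor of the core from test-tube assays, read 8.54, 8.67 and 8.40 in WT, 7.92, 8.13 and 8.25 in ischemic WT, 8.52, 8.48 and 8.23 in HDAC2-/- and 8.16, 7.98 and 8.05 in ischemic HDAC2-/- kidneys. The arrays were apart in both genotypes and it fell over both by 0.39 (SE 0.10, limma adjusted p = 0.0122).

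Among the assembly chaperones, 3 of 7 fell and none rose in WT, against 7.17% and 6.55% of all probe sets. Of these WT calls, Psmg2 was kept in all 12 fits without 1 array, Psmg1 in 7 and Psmd9 in 3. Psmg1 and Psmg2 pair to start the alpha ring. Psmg2 read 8.22, 8.24 and 8.27 in WT and 7.42, 7.46 and 7.79 in ischemic WT, with 8.11, 8.14 and 8.65 in HDAC2-/- and 7.74, 7.94 and 7.89 in ischemic HDAC2-/- kidneys. It was lower on all ischemic arrays in both genotypes, and fell by 0.69 on the log2 scale (SE 0.16, limma adjusted p = 0.0115) in WT and by 0.56 (SE 0.11, limma adjusted p = 0.00293) over both. Psmg1 read 7.98, 7.99 and 8.05, then 6.95, 7.64 and 7.58, then 7.68, 8.20 and 7.98, and 7.63, 7.60 and 7.62 in the order WT, ischemic WT, HDAC2-/- and ischemic HDAC2-/-. It too was lower on all ischemic arrays, by 0.48 (SE 0.13, limma adjusted p = 0.017) over both genotypes, and missed the threshold without HDAC2-/- replicate 2 at an adjusted p of 0.0516. Psmg3 and Psmg4, another pair of chaperones of the alpha ring, differed by 0.12 (SE 0.10) and -0.25 (SE 0.14).

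The base chaperone Psmd9 read 7.98, 8.19 and 8.15 in WT, 7.52, 7.56 and 7.89 in ischemic WT, 8.09, 8.24 and 8.01 in HDAC2-/- and 7.76, 7.80 and 7.82 in ischemic HDAC2-/- kidneys. It was lower on all ischemic arrays, by 0.39 (SE 0.10, limma adjusted p = 0.0115) over both genotypes. The other base chaperones, Psmd5 and Psmd10 (gankyrin), differed by 0.19 (SE 0.15) and -0.01 (SE 0.14), and for Psmd5 ischemic WT replicate 2 at 9.20 stood apart from 8.33 and 8.36 on the other ischemic WT arrays. In all, 8 members fell over both genotypes, and 5 of these were called in all 12 fits without 1 array; without HDAC2-/- replicate 2 the count was 5.

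**Figure D5:**
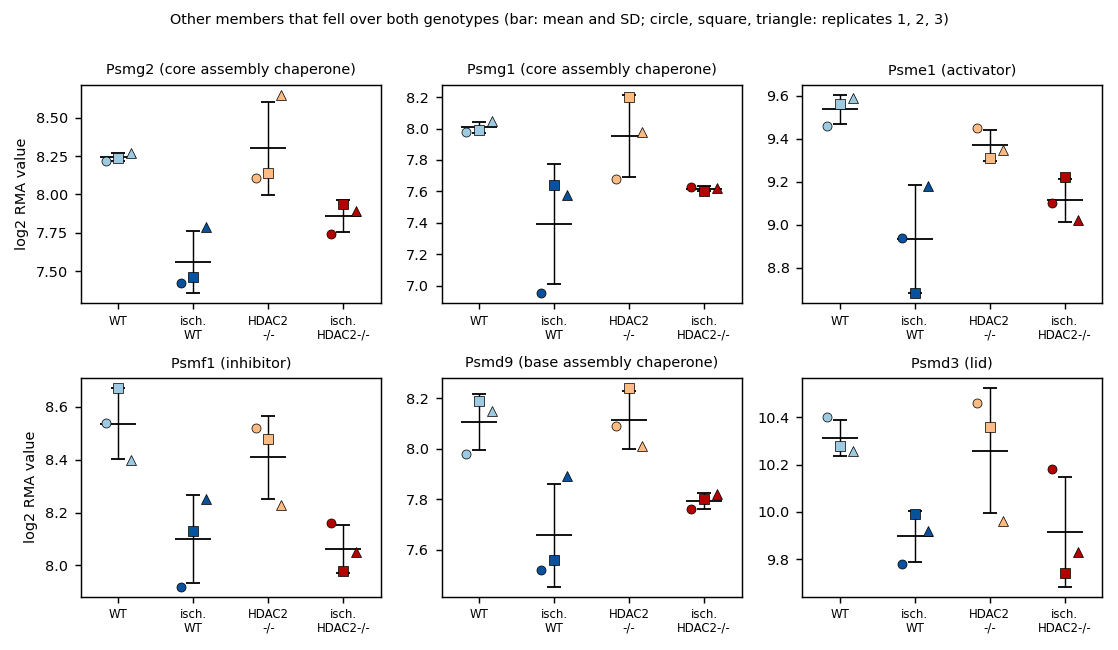
Log2 RMA value on every array of the members other than immunoproteasome genes that fell over both genotypes, the chaperones Psmg2, Psmg1 and Psmd9, the activator Psme1, the inhibitor Psmf1 and the lid gene Psmd3 (symbols, arrays; bars, mean and SD of 3). Psmg2, Psmg1, Psmd9, Psme1 and Psmf1 are lower on every ischemic array than without ischemia in both genotypes, and Psmd3 overlaps in HDAC2-/- kidneys.

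No member was called between the genotypes. Between ischemic HDAC2-/- and ischemic WT kidneys 0 members and 0% of all probe sets were called, and 0 members and 2273 probe sets had an unadjusted p under 0.05 in limma. Without ischemia the corresponding counts were 0 members, 0% of probe sets called and 822 probe sets under 0.05, and for the difference of the responses to ischemia 0 members, 0% and 1445. The smallest adjusted p of any member was 0.772, 1 and 0.956 in the same order in limma.

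At 4 h the smallest p belonged to Psmd2, which was lower in ischemic HDAC2-/- kidneys by 0.42 (SE 0.22, 95% interval of the difference from -0.90 to 0.05), and without ischemic WT replicate 2 the difference was -0.07. Psmg2 followed, higher by 0.30 (SE 0.16, 95% interval from -0.05 to 0.65). Without ischemia Psmd14 and Psme2 were higher in HDAC2-/- kidneys by 0.25 (SE 0.17) and 0.21 (SE 0.15). The response of Psmd14 to ischemia was smaller in HDAC2-/- kidneys by 0.50 (SE 0.24, 95% interval from -1.02 to 0.02), and by 0.33 without ischemic WT replicate 2. That of Psme1, a fall, was smaller by 0.35 (SE 0.20, 95% interval from -0.08 to 0.77). Across all members the intervals reached from -0.90 to 0.75 at 4 h and from -0.54 to 0.66 without ischemia. At 4 h 15 of the 17 regulatory genes were lower in HDAC2-/- than in WT kidneys, with a median of -0.10, but without ischemic WT replicate 2 the median was -0.005 and 7 were higher.

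Other genes of the pathway were counted from lists. Of 7 measured proteasome-bound and assembly factors outside the member rule, 2 rose in WT, 0 in HDAC2-/- and 3 over both genotypes (limma). Of all probe sets 6.55%, 2.94% and 8.52% rose in the same order. In HDAC2-/- kidneys 2 of these 7 factors had an unadjusted p under 0.05, as did 5829 of all 34472 probe sets. Ecpas, which tethers core and regulatory particle, read 7.38, 7.23 and 7.57 in WT and 8.14, 8.48 and 8.00 in ischemic WT, and rose over both genotypes by 0.62 (SE 0.14, limma adjusted p = 0.00665). The proteasome-bound deubiquitinase Usp14 rose by 0.45 (SE 0.13) and Txnl1, a thioredoxin of the regulatory particle, by 0.59 (SE 0.14), both called over both genotypes, while the core chaperone Pomp differed by -0.10 (SE 0.11). Of 7 NRF factors, 3 rose in WT, 2 in HDAC2-/- and 3 over both genotypes, beside the same shares of all probe sets. The NRF partners Maff and Mafk rose in both genotypes, by 1.93 and 1.07 in WT and by 2.09 and 1.29 in HDAC2-/-, and Nfe2l2 (NRF2) rose by 0.66 (SE 0.18, limma adjusted p = 0.0269) in WT. Nfe2l1 (NRF1), the factor that sets proteasome gene expression when the proteasome is inhibited, differed by -0.18 (SE 0.18) over both genotypes.

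Of 12 measured p97 and shuttle factors, 4 rose in WT and 1 in HDAC2-/-, and 4 rose and 1 (Ubqln2) fell over both genotypes, where 6.55% of all probe sets rose in WT, 2.94% rose in HDAC2-/-, and 8.52% rose and 9.92% fell over both. Zfand2a, induced by arsenite in other settings, rose by 1.23 (SE 0.23), Zfand5, which binds the proteasome, by 1.06 (SE 0.12) and the autophagy receptor Sqstm1 by 0.70 (SE 0.16) over both. Uba6, the only gene of the ubiquitin list with a probe set of its own, rose by 0.54 (SE 0.16, limma adjusted p = 0.029). Of 8 measured MHC class I antigen processing genes none was called within a genotype in limma. An unadjusted p under 0.05 was reached by 4 in WT and 1 in HDAC2-/-, beside 8648 and 5829 of all 34472 probe sets. Over both genotypes the peptide trimmer Erap1 rose by 0.49 (SE 0.12) and Tapbp, which tethers the transporter to MHC class I, fell by 0.40 (SE 0.12). Among markers of other cells, 2 of 5 endothelial genes rose and 1 fell in WT, and 1 of 9 genes of fat, muscle or adrenal rose, against 6.55% and 7.17% of all probe sets that rose and fell. Of 11 kidney markers 0 were called in either genotype in limma, and 1 fell over both genotypes, against 9.92% of all probe sets. Among these markers 0 in WT and 3 in HDAC2-/- had an unadjusted p under 0.05, beside the same 8648 and 5829 probe sets.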

How the data were processed

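Kidney RNA of 12 mice was hybridised to Mouse Gene 2.0 ST arrays. By the submitters' processing notes the authors ran RMA (Transcriptome Analysis Console 4.0), and what they deposited are log2 values from 1.58 to 14.51. RMA combines the probes of a probe set, which can mix transcripts. Background and summarization settings are not given in the sources used here, and the array annotation names no build. Gene symbols came from the platform annotation, in which 23521 of 34472 probe sets carried 1 symbol.

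limma 3.58.1 in R 4.3.3 modelled each probe set by its 4 group means. Variances were moderated by empirical Bayes, with degrees of freedom of 8 (residual) and 5.94 (prior). Benjamini-Hochberg adjustment ran over all 34472 probe sets, and calls required an adjusted p under 0.05. Groups are those of the labels. Ischemia was tested within each genotype and over both, the genotype at 4 h and without ischemia, and the difference of the responses. Changes of the catalytic pairs were fitted as differences within an array, with their variance moderated and p values adjusted along with all probe sets. Exact permutation tests, two-sided, were run on single values. The number of arrays limits the precision.

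Members were found by symbol, and pathway and marker lists held 92 genes, of which 79 were measured. The members and lists were chosen with earlier results of these data known. Named are the catalytic pairs, the called members with the largest changes, the smallest p values of comparisons without calls, the largest change in each role, and up to 3 called genes per pathway list. Genes beyond these are named to account for all members and were picked after their values were seen, as were Nkg7, Cd68, Slc34a1, Umod, Tap1, Tap2, Pomp, Nfe2l1 and Ubqln2. The small RNA level is the mean over 85 probe sets whose symbols begin with Snora, Snord, Scarna or Rnu. Replicate numbers were not used to pair arrays in the main fits. The fits were tested on simulated data. Plots were made in Python 3.11.15 (matplotlib 3.10.9).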

Additional observations from a re-analysis of the deposited data

How the results depend on the processing

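The counts over both genotypes were steadier than those within a genotype. Without 1 array in turn, 1 to 11 members rose and 3 to 6 fell in WT, 0 to 4 rose and 0 to 2 fell in HDAC2-/-, and 9 to 11 rose and 5 to 8 fell over both genotypes. Fewer arrays leave fewer degrees of freedom, and the cause of the spread was not tested beyond that. In HDAC2-/- kidneys, where 1 member rose, the count was 0 with each array centred on its median, with only the groups compared, with trend and robust settings and with no empirical Bayes step, while it was 2 with a mean log2 value of at least 5, with probe sets of 1 symbol only and with the small RNA level as a covariate. With array weights 9 rose and 5 fell there, and without both arrays of lowest weight, chosen after seeing the data, 7 rose and 2 fell. With the covariate 1 member fell there. For none of the alternative fits is the share of all probe sets called given. Their counts therefore do not show whether members changed more often than other probe sets.

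In WT, 6 members rose with no empirical Bayes step and 3 fell with only the groups compared. At an adjusted p under 0.1 and over 1.5-fold, 4 rose and 1 fell over both genotypes. At an unadjusted p under 0.05 and at least 2-fold, the counts were 0 for WT, HDAC2-/- and both genotypes in each direction. The change of Psmb10 less Psmb7 passed the threshold with array weights (-0.67, limma adjusted p = 0.00416), with the covariate (-0.46, 0.0408) and without both arrays of lowest weight (-0.65, 0.0113), and ranged from -0.61 to -0.33 without 1 array in turn. The cause of these moves was not tested.

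The replicate number as a block gave 11 risers and 6 fallers in WT, 1 and 1 in HDAC2-/- and 10 and 8 over both genotypes, and Psmb10 less Psmb7 passed at -0.46 (limma adjusted p = 0.0113). Arrays of the same number correlated in their deviations from the group means at -0.373 to 0.444, with 8 of 18 pairs over 0.1. Without values for arrays of unlike numbers, this cannot decide whether arrays of a number shared a batch. Median centring and quantile normalization kept the sign of 43 to 47 of the 47 members in each comparison. No genotype comparison called a member under any alternative run.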
